A study of Mus musculus with 16 samples.

Results

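Zinc handling in colonic epithelium was described through 10 genes, namely the metallothioneins Mt1, Mt2 and Mt3, the metal-sensing transcription factor Mtf1, the Slc30 transporters Slc30a1, Slc30a2 and Slc30a10, and the Slc39 transporters Slc39a4, Slc39a5 and Slc39a7. They are 10 of the 45513 genes counted, they were found by symbol, and each matched 1 gene. The genes were selected on their values in the tdTom+ against tdTom- contrast of these samples, so their levels and fold changes in that contrast are given as a description with no test. RNA sequencing (RNA-seq) was performed on live EpCAM+ cells of the colon, from 8 mice that carried Atoh1(WT)CreERT2 and the R26RtdTom reporter, and each mouse gave 1 tdTom+ and 1 tdTom- sample. The animals were adults of both sexes on a C57BL/6 background, and per the labels all of them received 1 mg tamoxifen per day for 3 days, so tamoxifen and the CreERT2 allele are common to both groups. The recombinase was placed downstream of the coding sequence of Atoh1, the transcription factor of secretory commitment, and it switches on the red reporter tdTomato in cells that express Atoh1 and in their progeny. Per the paper's methods, crypt-enriched fractions of the tissue were pooled for sorting, and the first fraction was discarded. The tdTom- group is therefore the EpCAM+ cells left unlabelled in such a preparation and not a single cell type.

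Metallothioneins are small cysteine-rich proteins that bind zinc, copper and cadmium, and Mt1 and Mt2 are classical zinc-induced genes. MTF1, the product of Mtf1, binds metal response elements in their promoters when cytosolic zinc rises. Slc30 proteins move zinc out of the cytosol, either across the plasma membrane or into vesicles and the Golgi apparatus, whereas Slc39 proteins move it into the cytosol from outside the cell or from organelles. Dietary zinc enters the absorptive cells of the gut at their apical face and leaves at their basolateral face, and goblet cells, which make mucus, carry a large secretory pathway into which zinc is also delivered.

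The sort separated the populations by their markers. Atoh1 ranged from 102 to 166 CPM (counts relative to the library total, scaled with TMM factors) in tdTom+ cells and from 3.18 to 8.89 CPM in tdTom- cells. The summed level of 7 goblet cell markers was 49000 to 103000 CPM in tdTom+ against 2220 to 8660 CPM in tdTom- samples, and that of 8 absorptive cell markers was 1190 to 1970 CPM against 6920 to 13900 CPM. Of the 8 absorptive markers, 7 were lower at an edgeR adjusted p under 0.01. The exception was Guca2a (735 ± 228 CPM against 900 ± 226 CPM, edgeR adjusted p = 0.152). The sum of 6 enteroendocrine markers was also lower in tdTom+ samples (312 to 801 CPM against 1360 to 3910 CPM). For 6 tuft markers the sums overlapped (40.2 to 83.5 CPM against 77.4 to 126 CPM), and 4 of 5 tested were lower at an edgeR adjusted p under 0.01. For 6 proliferation markers they also overlapped (443 to 718 CPM against 535 to 956 CPM), and 3 of 6 were lower. Of all genes tested, 25.5% were lower. Sums overlapped for 6 immune markers (2.02 to 5.18 CPM against 4.63 to 28.5 CPM) and 6 stromal and endothelial markers (4.84 to 11.5 CPM against 7.68 to 20.2 CPM). Of these, 2 immune and 2 stromal markers passed the filter, and 1 of each list fell in tdTom+ cells, Ptprc (log2 fold change -1.52, edgeR adjusted p = 2.28e-06) and Pecam1 (-1.58, edgeR adjusted p = 5.23e-09), while Vim stood at 7.31 ± 2.34 CPM and 10.5 ± 3.98 CPM (edgeR adjusted p = 0.0539). In these bulk samples a lower value can come from fewer cells of a type or from less RNA per cell, and these cannot be told apart. Total counts were 16482530 to 24218367 in tdTom+ and 18318172 to 45791503 in tdTom- samples, the deepest being the tdTom- library of mouse 4, whereas all other tdTom- libraries held at most 20668605.

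The promoters of 5 of the 10 genes are shown because the metallothioneins stand next to each other on chromosome 8 yet differ in direction between the populations, and because Slc30a1 and Slc30a10 had the lowest tdTom+ to tdTom- ratios among the transporters. Each run is the RefSeq window (GRCm38.p6) from 250 bases before to 50 bases after the annotated start, read 5′ to 3′ on the strand of the gene. Capitals mark the core of the metal response element, TGCACNC or TGCGCNC, on either strand. The windows are chr8:94178839-94179138 (plus strand) for Mt1, chr8:94172368-94172667 (plus strand) for Mt2, chr8:94152357-94152656 (plus strand) for Mt3, chr1:191906531-191906830 (plus strand) for Slc30a1 and chr1:185454598-185454897 (plus strand) for Slc30a10.
Mt1: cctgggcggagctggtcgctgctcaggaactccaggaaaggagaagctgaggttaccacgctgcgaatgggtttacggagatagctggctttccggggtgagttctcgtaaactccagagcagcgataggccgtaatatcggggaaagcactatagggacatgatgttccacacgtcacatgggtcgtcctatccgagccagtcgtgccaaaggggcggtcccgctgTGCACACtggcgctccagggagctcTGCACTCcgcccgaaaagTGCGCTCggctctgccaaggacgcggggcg
Mt2: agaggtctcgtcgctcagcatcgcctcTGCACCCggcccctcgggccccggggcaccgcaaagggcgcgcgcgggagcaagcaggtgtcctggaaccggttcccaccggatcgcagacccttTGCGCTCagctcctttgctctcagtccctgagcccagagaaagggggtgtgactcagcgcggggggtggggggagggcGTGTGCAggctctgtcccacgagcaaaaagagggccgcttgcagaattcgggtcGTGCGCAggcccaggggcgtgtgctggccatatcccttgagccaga
Mt3: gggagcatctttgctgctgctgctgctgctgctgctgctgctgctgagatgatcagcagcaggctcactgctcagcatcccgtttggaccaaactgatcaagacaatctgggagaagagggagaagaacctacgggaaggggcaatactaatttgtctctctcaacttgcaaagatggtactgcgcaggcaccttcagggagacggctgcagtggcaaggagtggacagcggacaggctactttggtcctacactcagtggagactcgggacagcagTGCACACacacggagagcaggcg
Slc30a1: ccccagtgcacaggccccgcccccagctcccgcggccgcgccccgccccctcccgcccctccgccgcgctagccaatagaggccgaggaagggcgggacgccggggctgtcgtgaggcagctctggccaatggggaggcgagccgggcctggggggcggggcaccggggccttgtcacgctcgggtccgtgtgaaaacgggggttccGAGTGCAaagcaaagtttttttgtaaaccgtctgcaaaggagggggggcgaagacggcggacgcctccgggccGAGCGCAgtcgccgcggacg
Slc30a10: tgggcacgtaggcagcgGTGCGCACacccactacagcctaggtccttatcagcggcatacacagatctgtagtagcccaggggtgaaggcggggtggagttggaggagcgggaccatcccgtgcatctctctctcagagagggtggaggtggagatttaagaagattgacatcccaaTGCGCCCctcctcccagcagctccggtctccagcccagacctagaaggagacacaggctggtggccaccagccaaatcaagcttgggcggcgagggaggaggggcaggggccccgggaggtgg

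The Mt2 window held 4 cores, with first bases at -223, -128, -50 and 5 (counted from 1 at the annotated start and from -1 before it), and the Mt1 window held 3, at -23, 3 and 21. The Mt3 window held 1 core, at 28. Cores after the annotated start are this one, those of Mt1 at 3 and 21, that of Mt2 at 5 and that of Slc30a1 at 31. The annotated starts were not checked against the RNA, so these cores need not lie within the transcript. Cores outside the windows were not counted, so the counts do not rank whole promoters. Slc30a10 held 3 matches, at -233, -232 and -73, of which the first 2 overlap on opposite strands. Slc30a1 held 2 cores, at -43 and 31, and Slc30a2 held 2, at -214 and -200. Slc39a5 has 2 annotated starts, and only the window of the first held a core, at -129, while the windows of Mtf1 and Slc39a7 held 0. The table of promoters holds 9 of the 10 genes and not Slc39a4. Of all 32851 promoter windows in it, 25.7% held at least 1 core, 7.11% at least 2, 1.97% at least 3 and 0.517% at least 4. A match in a window is a description of its letters and not of a bound site.

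**Figure D1:**
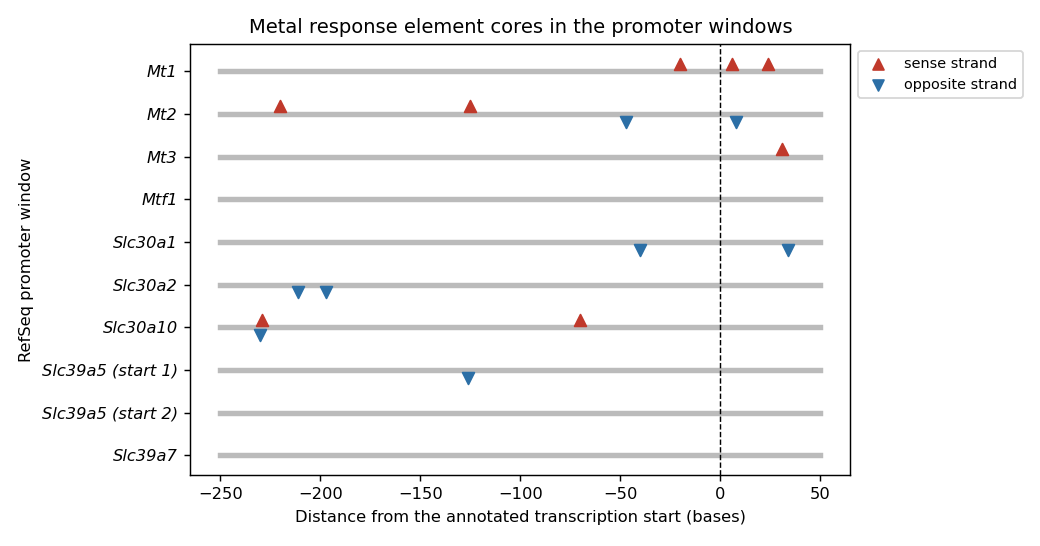
Metal response element cores in the promoter windows of the 9 genes with a RefSeq window, drawn by distance in bases from the annotated start (dashed line), with upward triangles for the sense strand and downward triangles for the opposite strand. Mt2 holds 4 cores and Mt1 holds 3. Slc30a10 holds 3 matches, with those at -233 and -232 overlapping on opposite strands. The windows of Mtf1, Slc39a7 and the second start of Slc39a5 hold 0.

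Mt1 (ENSMUSG00000031765; chr8:94179089-94180325, plus strand) was the most abundant of the 10 genes per kilobase of exon in both populations. Its level ran from 46.1 to 74.2 CPM (median 58.2) in tdTom+ cells and from 96.7 to 158 CPM (median 117) in tdTom- cells. All tdTom+ samples lay below all tdTom- samples, and within a mouse the tdTom- level was 1.63 to 2.45 times the tdTom+ level. Means were 59.8 ± 10.04 CPM and 124 ± 20.2 CPM (SD, n = 8 each), a log2 fold change (tdTom+ over tdTom-, edgeR) of -1.05 ± 0.107 (SE).

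Mt2 (ENSMUSG00000031762; chr8:94172618-94173567, plus strand), which lies 5521 bases from Mt1, was lower in tdTom+ cells in the same way. It measured 15.95 to 34.6 CPM (median 23.4) in tdTom+ and 42.1 to 86.3 CPM (median 50.7) in tdTom- samples, with a log2 fold change of -1.21 ± 0.154 (SE). The groups did not overlap, and the tdTom- sample of mouse 4 stood above the other tdTom- samples, which reached 61.3 CPM. That sample is also the deepest library, and without it the log2 fold change of Mt2 was -1.07 and that of Mt1 -0.99. The ratio of Mt1 to Mt2 counts overlapped between the populations, at 2.13 to 3.00 (median 2.49) in tdTom+ and 1.83 to 2.77 (median 2.34) in tdTom- cells.

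Mt3 (ENSMUSG00000031760; chr8:94152607-94154148, plus strand), a metallothionein best known from the brain and less responsive to metals than Mt1 and Mt2, went the other way. It was read 217 to 432 times per tdTom+ library and 6 to 16 times per tdTom- library. Levels were 12.7 to 24.0 CPM (median 17.2) in tdTom+ and 0.272 to 0.765 CPM (median 0.483) in tdTom- cells, so that the lowest tdTom+ sample lay far above the highest tdTom- sample. The tdTom+ to tdTom- ratio was 16.8 to 72.1 over the 8 mice, and the log2 fold change was 5.13 ± 0.186 (SE). Mt3 made up 14.6 to 24.5% (median 15.2%) of the reads on Mt1, Mt2 and Mt3 in tdTom+ cells and 0.111 to 0.548% (median 0.299%) in tdTom- cells.

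In tdTom- cells Mt3 stood at 1.39 to 5.94% (median 2.81%) of its tdTom+ level in the same mouse. The sum of the 7 goblet cell markers stood there at 3.63 to 9.49% (median 5.89%) of its tdTom+ level. The part of goblet RNA in the tdTom- reads of Mt3 was not tested. Mt4, the metallothionein of stratified squamous epithelia at the other end of the 43122-base cluster, had 0 to 1 counts in tdTom+ and 0 to 2 counts in tdTom- libraries, within 3 counts, which was taken as the limit of detection. Mt3 and Mt2 are 18469 bases apart. None of the metallothionein genes shared an exact 50-base stretch of its annotated transcripts with the annotated transcripts of another gene. Inexact matches and matches outside annotated transcripts were not checked.

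Mtf1 (ENSMUSG00000028890; chr4:124802104-124849800, plus strand) differed least of the members whose groups were apart. It measured 17.2 to 22.5 CPM (median 21.0) in tdTom+ and 24.7 to 30.2 CPM (median 26.5) in tdTom- cells, with a log2 fold change of -0.38 ± 0.0631 (SE). The groups did not overlap, and every mouse had the lower level in tdTom+ cells.

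**Figure D2:**
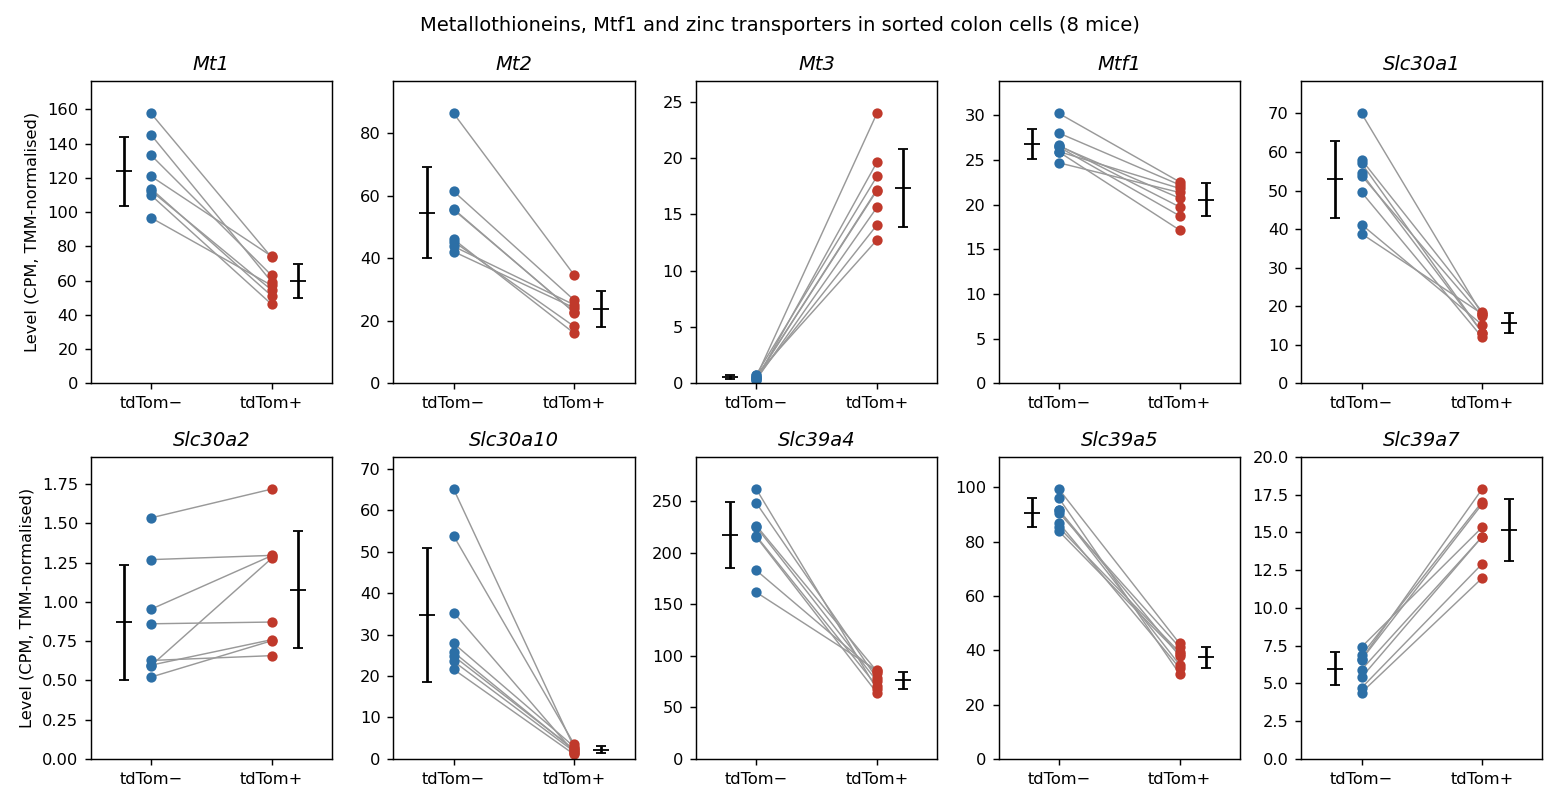
Level in CPM (linear axes from 0) of each of the 10 genes in the tdTom- (blue) and tdTom+ (red) sample of 8 mice, with grey lines joining samples of a mouse and black bars giving mean ± SD. Mt3 and Slc39a7 are higher and 7 genes lower in all tdTom+ samples, whereas the Slc30a2 groups overlap.

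Of the Slc30 members, Slc30a1 (ENSMUSG00000037434; chr1:191906767-191913247, plus strand) encodes the main zinc exporter of the plasma membrane. Its level was 11.9 to 18.5 CPM (median 16.3) in tdTom+ and 38.8 to 70.0 CPM (median 54.2) in tdTom- cells. The groups were apart, and the log2 fold change was -1.75 ± 0.119 (SE), with tdTom- levels 2.16 to 4.35 times the tdTom+ levels within mice.

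Slc30a10 (ENSMUSG00000026614; chr1:185454848-185468762, plus strand), whose product exports manganese, had the most negative log2 fold change of the 10, -3.96 ± 0.269 (SE). Levels were 1.07 to 3.49 CPM (median 2.15) in tdTom+ cells, from 19 to 68 counts, and 21.6 to 65.2 CPM (median 26.8) in tdTom- cells. The tdTom- level was 9.59 to 24.2 times the tdTom+ level. It was also the most variable member among tdTom- samples, with a coefficient of variation of 46.3%, and mice 8 (65.2 CPM) and 3 (53.9 CPM) were the highest.

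Slc30a2 (ENSMUSG00000028836; chr4:134343181-134354484, plus strand), which encodes a vesicular zinc transporter known from the lactating mammary gland, was near the lower end of what was counted. It had 11 to 36 counts per tdTom+ and 11 to 79 counts per tdTom- library, that is 0.658 to 1.72 CPM (median 1.07) and 0.521 to 1.54 CPM (median 0.744). The groups overlapped, although the tdTom+ level was the higher in 8 of 8 mice, by ratios of 1.01 to 2.15. The log2 fold change was 0.25 ± 0.257 (SE) in the fit with no mouse term and 0.31 ± 0.18 (SE) with mouse as a replicate block. Without the tdTom- library of mouse 4 it was 0.47.

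Both plasma-membrane zinc importers of the set were lower in tdTom+ cells. Slc39a4 (ENSMUSG00000063354; chr15:76612385-76616852, minus strand), the apical zinc importer of the gut, measured 64.1 to 86.0 CPM (median 76.9) in tdTom+ and 162 to 262 CPM (median 221) in tdTom- cells, with a log2 fold change of -1.51 ± 0.0914 (SE). Slc39a5 (ENSMUSG00000039878; chr10:128395934-128401224, minus strand), known from the basolateral membrane, measured 31.4 to 42.5 CPM (median 38.2) against 83.9 to 99.4 CPM (median 91.2), with a log2 fold change of -1.28 ± 0.0626 (SE). For both, no tdTom+ sample reached the lowest tdTom- sample. Slc39a5 was the steadiest member among tdTom- samples, with a coefficient of variation of 5.84%.

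Slc39a7 (ENSMUSG00000024327; chr17:34028267-34031690, minus strand), which releases zinc from the endoplasmic reticulum, was higher in tdTom+ cells. It measured 12.0 to 17.9 CPM (median 15.0) in tdTom+ and 4.40 to 7.41 CPM (median 6.24) in tdTom- cells, with no overlap, and the ratio within mice was 2.07 to 2.75. The log2 fold change was 1.34 ± 0.112 (SE). Its level is uncertain because 2078 of its 2594 exon bases are shared on the same strand with the gene model Gm20427, where a read counts for neither gene. Gm20427 itself had 1 to 12 counts in tdTom+ and 1 to 7 counts in tdTom- libraries. Over the 516 countable bases Slc39a7 stood at 29.4 ± 3.97 CPM per kilobase in tdTom+ and 11.6 ± 2.08 CPM per kilobase in tdTom- cells (SD, n = 8).

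Levels can be set side by side between genes only per kilobase of exon. In tdTom- cells Mt1 led with 229 ± 37.4 CPM per kilobase, followed by Mt2 (98.0 ± 26.2), Slc39a4 (97.8 ± 14.6) and Slc39a5 (42.4 ± 2.48), and Mt2 and Slc39a4 did not differ beyond their spread. Slc39a7 (11.6 ± 2.08, countable bases) and Slc30a1 (10.1 ± 1.89) lay within each other's range, and Slc30a10 (5.95 ± 2.76), Mtf1 (3.01 ± 0.187), Mt3 (0.953 ± 0.334) and Slc30a2 (0.244 ± 0.103) came below. In tdTom+ cells Mt1 again led with 111 ± 18.6 CPM per kilobase. Mt2 (42.6 ± 10.1), Slc39a4 (34.3 ± 3.75), Mt3 (32.2 ± 6.48) and Slc39a7 (29.4 ± 3.97) overlapped each with its neighbour, so that Mt3 stood next to last in tdTom- cells and among the 5 highest in tdTom+ cells. Slc39a5 (17.5 ± 1.80), Slc30a1 (2.98 ± 0.502), Mtf1 (2.30 ± 0.210), Slc30a10 (0.379 ± 0.136) and Slc30a2 (0.302 ± 0.104) followed.

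All 10 members passed the filter on low counts, together with 15841 genes in all. At an adjusted p under 0.01 in edgeR's quasi-likelihood test, 25.5% of those genes were higher and 25.5% lower in tdTom+ cells, and for 30.5% the groups of samples did not overlap. The corresponding counts for the members, 2 higher (Mt3 and Slc39a7), 7 lower and 9 without overlap, follow from how they were chosen. The median log2 fold change was -1.13 over the members and 0.00 over all genes tested.

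The remaining 18 Slc30 and Slc39 genes were not among the members and were tested. Of the 15 that passed the filter, 7 were higher and 1 was lower in tdTom+ cells, against 25.5% of all genes in each direction, with a median log2 fold change of 0.29. These 15 are what remains after the members, most of them lower in tdTom+ cells, were set apart by values of the same contrast, so their balance is not that of the families. Over the whole families, members included, 2 of 8 tested Slc30 genes were higher and 2 lower, and 6 of 13 tested Slc39 genes were higher and 3 lower. The genes outside the members that rose were Slc39a8, Slc39a13, Slc39a11, Slc30a7, Slc39a14, Slc39a1 and Slc30a5. For each of these the tdTom+ samples lay above all tdTom- samples, which held for 7 of the 15, while 1 was below throughout and 7 overlapped.

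Slc39a8, a zinc and manganese importer, rose from 33.7 ± 3.84 to 113 ± 17.6 CPM (log2 fold change 1.74 ± 0.0909, edgeR adjusted p = 9.0e-13). Slc39a13, a zinc transporter of intracellular vesicles and the Golgi, rose from 6.43 ± 0.648 to 17.8 ± 2.83 CPM (1.47 ± 0.0967, edgeR adjusted p = 3.39e-11). Slc39a11 rose from 94.1 ± 7.04 to 241 ± 21.7 CPM (1.36 ± 0.0637, edgeR adjusted p = 1.72e-13). Slc30a7, which loads zinc into the Golgi and early secretory pathway, rose from 53.9 ± 2.19 to 137 ± 16.7 CPM (1.35 ± 0.068, edgeR adjusted p = 5.27e-13). Slc30a5, which acts in the same compartment, rose less, by a log2 fold change of 0.48 ± 0.0642 (edgeR adjusted p = 1.59e-06).

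Slc39a14, an importer of zinc, iron and manganese, rose by 0.79 ± 0.0671 (edgeR adjusted p = 1.88e-09) and Slc39a1 by 0.57 ± 0.0538 (edgeR adjusted p = 1.11e-08) on the log2 scale. Of the 50-base stretches of Slc39a1, 21.8% also occur in the pseudogene Slc39a1-ps, so its count is less certain. Slc39a9, known from the Golgi and plasma membrane, was the 1 gene that fell, from 174 ± 6.27 to 132 ± 14.0 CPM (log2 fold change -0.40 ± 0.0616, edgeR adjusted p = 1.06e-05). Slc30a4, Slc30a6, Slc30a9, Slc39a2, Slc39a3, Slc39a6 and Slc39a10 did not pass, with log2 fold changes from -0.21 (Slc30a4, edgeR adjusted p = 0.0489) to 0.29 (Slc39a2, edgeR adjusted p = 0.349). Slc30a3 (0 to 2 counts in tdTom+ and 1 to 10 in tdTom- libraries), Slc30a8 (0 to 3 and 0 to 6) and Slc39a12 (0 in all 16 libraries) were too low to test.

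**Figure D3:**
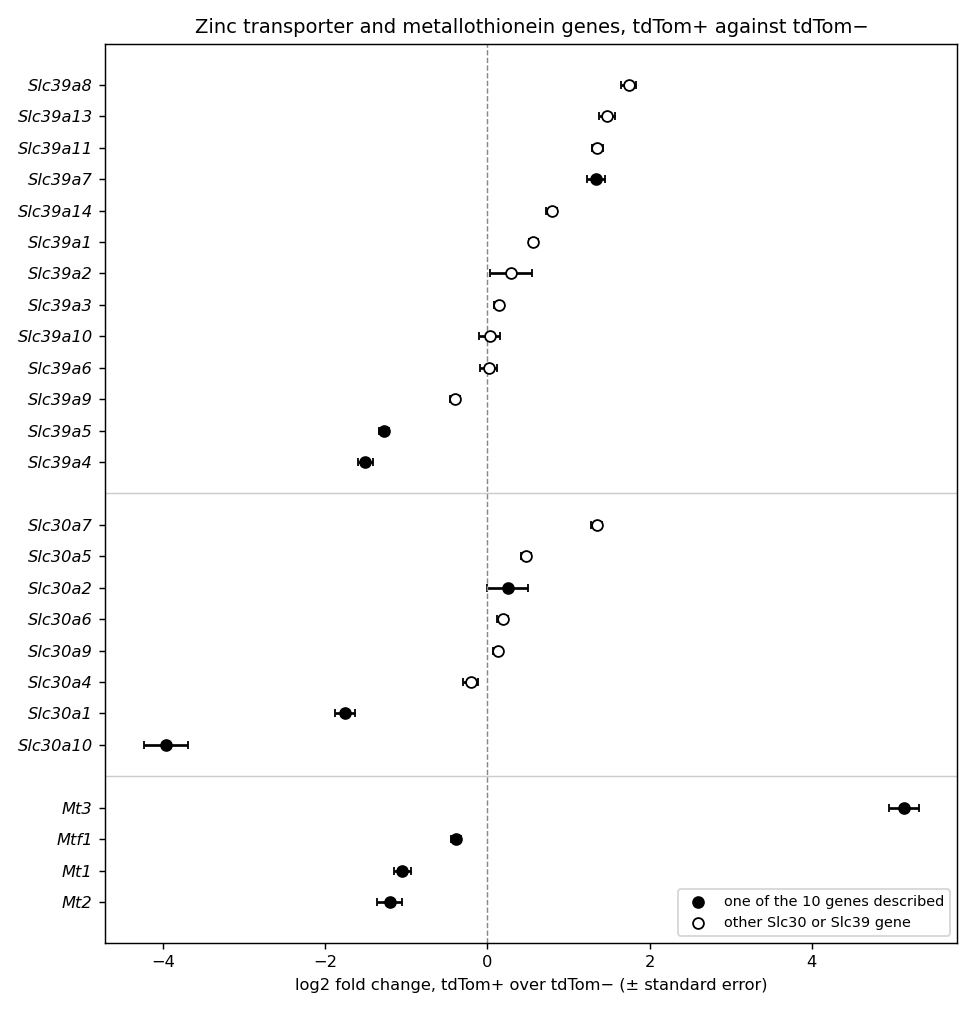
Log2 fold change (tdTom+ over tdTom-) ± SE from edgeR for the tested metallothionein, Mtf1, Slc30 and Slc39 genes, with filled circles for the 10 genes described and open circles for the other transporters. Mt3 lies at 5.13 and Slc30a10 at -3.96, and the open circles run from Slc39a9 at -0.40 to Slc39a8 at 1.74.

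Further genes tied to zinc and metal stress were read from a list of 8, which includes Mtf1. Apart from Mtf1, Gclc and Gclm, the subunits of the enzyme that starts glutathione synthesis, were lower in tdTom+ cells (log2 fold changes -1.15 ± 0.0882 and -0.98 ± 0.061, edgeR adjusted p = 4.17e-10 and 1.36e-11). Gpr39, a zinc-sensing receptor, was also lower (-0.97 ± 0.0987, edgeR adjusted p = 3.09e-08), as was the thioredoxin reductase gene Txnrd1 (-0.76 ± 0.063, edgeR adjusted p = 1.46e-09). Ndrg1, a stress-response gene, was higher (1.31 ± 0.115, edgeR adjusted p = 3.13e-09). Hmox1, the inducible heme oxygenase, did not pass (0.45 ± 0.251, edgeR adjusted p = 0.128) and Tmem163 was too low to test. In all, 1 of the 6 tested genes of this list other than Mtf1 was higher and 4 were lower, against 25.5% of all genes in each direction. The list was chosen with earlier results of these data known, so these counts are a description and nothing is concluded from them.

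Metallothioneins also respond to glucocorticoids, so 6 genes of that response were read beside them. Sgk1 (log2 fold change -2.06 ± 0.231, edgeR adjusted p = 1.38e-07), Fkbp5 (-1.79 ± 0.116, edgeR adjusted p = 2.78e-11), Zbtb16 and Tsc22d3 were lower in tdTom+ cells. Klf9 was higher (0.31 ± 0.0797, edgeR adjusted p = 0.00192), and Per1 did not pass (0.15 ± 0.152, edgeR adjusted p = 0.418). That is 1 higher and 4 lower of 6, against 25.5% of all genes in each direction. This list and the next were also chosen with earlier results of these data known, so their counts are a description. Of 10 genes of the response to tissue dissociation, 0 passed an edgeR adjusted p of 0.01 without a mouse term, 2 had an unadjusted p under 0.05, and 1 passed by DESeq2 and 1 by limma-voom. In the paired fit with mouse as a replicate block, 8 of the 10 passed, and all 8 were lower in tdTom+ cells. Of all 15841 genes in that fit, 4574 were lower and 4494 higher. Fos, Jun, Junb, Egr1 and Atf3 were lower in tdTom+ cells in 8 of 8 mice, with log2 fold changes in the paired fit of -0.50 ± 0.0583 for Jun (edgeR adjusted p = 7.65e-07, 0.0132 unpaired) and -0.36 ± 0.0566 for Fos (edgeR adjusted p = 2.37e-05, 0.0837 unpaired). Fosb and Ier2 did not pass in either fit. The part of these responses, or of the absorptive, enteroendocrine, tuft and other cells in the tdTom- sort, in the Mt1 and Mt2 values was not tested.

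Whether the mouse-to-mouse spread is shared between genes does not use the contrast that chose the members, and it was tested within each population over 8 mice. Log2 CPM of Mt1 was compared with that of Mt2, Mt3, Slc30a1, Mtf1, Slc39a4, Tsc22d3, Fkbp5 and Fos, 16 relations in all, by exact two-sided permutation tests of Pearson's r. None passed a Benjamini-Hochberg adjusted p of 0.05 (0 of 16), and 3 had an unadjusted p under 0.05.

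Mt1 and Mt2 had r = 0.835 in tdTom+ cells (exact permutation p = 0.0112, adjusted 0.0854, Spearman's rho = 0.881 with exact permutation p = 0.00724, adjusted 0.116) and r = 0.827 without the 2 mice farthest from the median of Mt1. In tdTom- cells r was 0.84 (exact permutation p = 0.00712, adjusted 0.0854, rho = 0.738 with exact permutation p = 0.0458, adjusted 0.307) and 0.708 without the 2 farthest. In both populations r for Mt1 and Mt2 was positive and missed the adjusted threshold. The third relation with an unadjusted p under 0.05 was that of Mt1 with Mt3 in tdTom- cells, where Mt3 rests on 6 to 16 counts per library, and nothing is read from it.

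The other 13 relations of Mt1 had unadjusted exact permutation p of at least 0.126 by Pearson's r. The mouse numbers in the titles fall into 3 number series of 3, 1 and 4 mice, too few for a correlation within any of them. With the mean of each series subtracted and the lone mouse left out (7 mice), r for Mt1 and Mt2 was 0.731 in tdTom+ and 0.71 in tdTom- cells. Within mice of the 2 larger series taken alone, the log2 fold changes between populations were -1.04 and -1.04 for Mt1, 5.16 and 4.78 for Mt3, -1.90 and -1.79 for Slc30a1 and 1.41 and 1.30 for Slc39a7.

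The members' levels in the 2 populations were also set side by side over the mice. These are the paired values on which the members were selected, so r is given as a description of 8 mice, with no p. Slc39a7 had r = 0.871 (rho = 0.81), 0.894 with series means subtracted, 0.779 to 0.974 with 1 mouse left out, and 0.509 without mice 3 and 7, the 2 farthest from the median. Slc30a2 had r = 0.777 (rho = 0.762), and 0.478 without the 2 farthest mice. For Mt2, r = 0.714 (rho = 0.381) became 0.0749 without mice 4 and 7. Over the other members r ranged from -0.532 (Slc39a4) to 0.62 (Slc30a10).

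**Figure D4:**
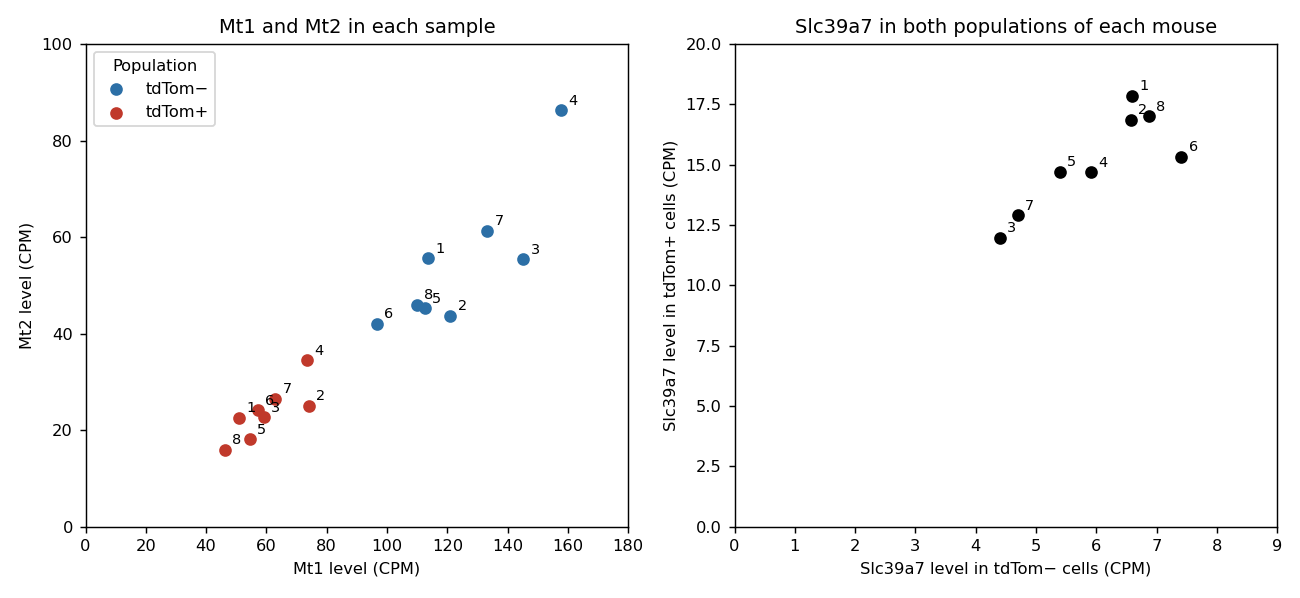
Left, Mt2 against Mt1 level (CPM) in each sample, tdTom- in blue and tdTom+ in red, numbered by mouse. Right, Slc39a7 level (CPM) in tdTom+ against tdTom- cells of each mouse. Mouse 4 has the highest Mt2 level in both populations, and mouse 3 the lowest Slc39a7 level in both.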

How the data were processed

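RNA of sorted colon cells was sequenced after a stranded mRNA library preparation. The authors aligned reads with TopHat2 2.1.1 to GRCm38, and the deposited files hold raw counts per gene made with featureCounts on exons (v1.5.0-p1 per the file headers, Subread 1.5.2 per the submitters' processing notes), with strand used and reads on overlapping exons of several genes not assigned. Symbols came from GENCODE and matched 44585 of 45513 identifiers. Counts were scaled with TMM factors and fitted in edgeR 4.0.16 (R 4.3.3; filterByExpr, glmQLFit, glmQLFTest, no mouse term) over 15841 genes, with Benjamini-Hochberg adjustment and a threshold of 0.01. Fold changes are edgeR's log2 values, and correlations used log2 CPM with a prior count of 2. The floor of 3 counts was 0.0583 to 0.194 CPM and covers counting error only. The 10 genes and all gene lists were chosen with earlier results of these data known. All 10 genes, the other transporters past the threshold and the largest changes of each further list are named.

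The replicate numbers mark a shared mouse, since both samples of a number come from the same animal. Deviations of the 2 samples of a mouse correlated at r = 0.223 to 0.408, against at most 0.168 between mice. No 2 libraries of a group agreed within sampling noise (lowest chi-square per degree of freedom 11.7 over 56 pairs). Alternatives were a fit with a replicate block, DESeq2 1.42.0, limma-voom (limma 3.58.1), RLE size factors, other filters and thresholds, each mouse left out, mice of 1 number series only and, chosen after seeing the data, the tdTom- library of mouse 4 left out and the replicate block for the response lists. The edgeR steps and the permutation test were tested on simulated data. Small intestine samples were not analysed here.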

Additional observations from a re-analysis of the deposited data

Results flagged for a closer look

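In 52 groups of 8 samples, the highest or lowest sample stood far from the others in 4 by Dixon's test, where chance alone gives about 1 in 20 groups, or 2.6 of 52. The first is the Mt2 level in tdTom- cells of mouse 4, 86.3 CPM against 42.1 to 61.3 CPM in the other tdTom- samples. The second is the total count of that same library, 45791503 against 18318172 to 20668605. In tdTom- cells of mouse 8, Slc39a10 stood at 24.5 CPM against 14.1 to 18.7 CPM, and in tdTom- cells of mouse 1, Slc39a13 stood at 7.92 CPM against 5.88 to 6.53 CPM. Slc39a10 did not pass the test between the populations (edgeR adjusted p = 0.858), and the tdTom+ samples of Slc39a13 (13.6 to 23.0 CPM) lay above this value.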

How the results depend on the processing

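The log2 fold changes of the members were recomputed under 169 combinations of gene and alternative, and in 169 they moved by less than 1 SD of the paired differences, with 0 changes of sign. Mt3 has no value where at least 10 counts were required in every sample. The SE printed for the members come from the fit with no mouse term. With mouse as a replicate block the SE was 0.0733 in place of 0.154 for Mt2. For Slc30a10 it was 0.128 in place of 0.269. Over the fits that each left out 1 mouse, log2 fold changes ran from -1.10 to -1.01 for Mt1, from -1.25 to -1.16 for Mt2, from 4.96 to 5.29 for Mt3, from 0.16 to 0.36 for Slc30a2 and from 1.33 to 1.40 for Slc39a7. Among the other zinc transporters, the count of higher genes was 7 under the paired fit with a replicate block, which changed no call, 7 to 8 with each mouse left out, 9 at an adjusted p of 0.05, and 6 with mice 1 to 3 only, where Slc30a5 did not pass (edgeR adjusted p = 0.0153). The count of lower genes was 1 under the replicate block, 2 at an adjusted p of 0.05 and 1 to 2 with each mouse left out, the second gene being Slc30a4 (without mouse 1, edgeR adjusted p = 0.00714). Without mouse 5, Slc30a6 also passed as higher (edgeR adjusted p = 0.00916). The count of dissociation response genes past the threshold was 0 without and 8 with the replicate block, an alternative added for that list after seeing the data. Over all 15841 genes the block called 4574 lower and 4494 higher. It changed no call among the tested metal and glucocorticoid response genes outside the members. The relations between a member's levels in the 2 populations carry no test. With each mouse left out, r ran from 0.779 to 0.974 for Slc39a7 and from 0.627 to 0.936 for Slc30a2. For Mt2 it ran from 0.354 to 0.81, and for Slc39a4 from -0.672 to -0.331. The count of relations of Mt1 was 0 under every alternative run. The cause of these changes was not tested. Depth limits Slc30a2 and, in tdTom- cells, Mt3, and nothing can be said of Mt4, Slc30a3, Slc30a8 and Slc39a12 beyond their counts.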

Other observations

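The genes whose deviations from the population means were most like those of a member over the 16 samples were read from 10059 genes with at least 10 CPM on average. These values are a description across samples that share libraries and, in pairs, a mouse. Each r is among the highest of 10059, so its size follows in part from the ranking. For Mt1 they were Poll, a DNA polymerase gene (r = 0.839), Mt2 (r = 0.837) and Mecr, a gene of mitochondrial fatty acid synthesis (r = 0.818). For Mt3 they were Slc3a2, the heavy chain of amino acid transporters (r = 0.812), Suco (r = 0.752) and Rffl (r = 0.749). Mt3 rests on 6 to 16 counts per tdTom- library, which limits this ranking. In that order, r was 0.764, 0.615 and 0.728 within tdTom+ samples and 0.837, 0.873 and 0.883 within tdTom- samples. For Slc39a4 they were Il22ra1, a subunit of the interleukin-22 receptor (r = 0.934), Cdipt, the phosphatidylinositol synthase (r = 0.913), and Slc41a2, a magnesium transporter (r = 0.905).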
